A study of Danio rerio with 9 samples.

Results

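Brain neurons of adult zebrafish whose axons had been cut in the spinal cord were compared with neurons of unlesioned fish, and the changes were sorted by whether neurons that regrew an axon and neurons that did not showed them to a similar extent. All 9 arrays of the study entered this comparison, 6 from lesioned and 3 from unlesioned fish. The 3 regenerated and the 3 nonregenerated arrays were chosen by their titles, and each of these lesioned groups carried equal weight against the 3 controls. The measurement was gene expression on Affymetrix 3' IVT arrays, which read biotin-labelled, amplified RNA of sorted cells.

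The lesioned fish had the cord severed completely at vertebra 8, with Fluororuby placed there. Fluororuby is a red dextran tracer that travels back along axons to the cell body. Fluoroemerald, a green tracer, followed after 3 weeks at a site 4 mm further down the cord, and brains were dissociated and sorted 1 week later. Regenerated neurons were those reached by the second tracer, and nonregenerated neurons are labelled as those that did not regrow an axon. Unlesioned fish were traced with Fluororuby at vertebra 8 and their neurons were isolated 1 week later. The lesion, the longer time since the first tracer and the second tracer, described for lesioned fish only, therefore cannot be told apart. Neither the strain nor a genotype is given in the sources used here. All fish are described as adult, and the labels call the 3 samples of each group biological replicates. Whether regenerated and nonregenerated samples came from the same fish, and how many fish gave 1 sample, is not given either. With 3 arrays a group, that number limits the precision of every value.

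Cutting an axon is known to change gene expression in the cell body of the injured neuron. In mammals and fish the response includes transcription factors such as Atf3, Jun, Stat3, Sox11 and the Klf family, then genes of the growing axon such as Gap43 and tubulins. Phagocytes are known to gather near injured neurons, and lysosomal genes mark both such cells and neurons that turn over membrane. Neurons that project from the brain to the cord are few among many other brain cells, so a sort may also carry glia, blood cells and neurons of other regions.

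The deposited log2 values have a median of 0 over the 9 arrays for every probe set. A value is therefore a distance from that probe set's own median, differences between groups can be read, and no absolute level can be given. For this reason it could not be checked whether the defining markers of neurons were present at all in these sorts. The regenerated arrays spread more widely than the others, with an SD over probe sets of 0.59 to 0.65 against 0.35 to 0.43 in the other 6 arrays. The median of 22 negative control probe sets, which match no zebrafish sequence, was 0.48, 0.04 and 0.28 in regenerated arrays 1 to 3 and between -0.16 and 0.08 in the other 6. The part of these differences in the results was not tested. The counts and some of the lists led by the regenerated arrays are also given without regenerated arrays 1 and 3. The axon growth and axon guidance lists are not.

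No single probe set separated lesioned from unlesioned neurons once all were taken into account. Of 15502 probe sets, 0 passed limma's test at an adjusted p under 0.05, which is 0% of those tested, and the lowest adjusted p was 0.111. At an unadjusted p under 0.05, 1260 probe sets passed, or 8.13%, where 775 would be expected if none differed. Of these, 512 were higher in lesioned neurons, or 3.30%, and 748 were lower, or 4.83%. All 6 lesioned arrays lay above all 3 unlesioned arrays at 216 probe sets, or 1.39%, and below them at 227, or 1.46%. With 6 against 3 arrays some probe sets separate in this way when none differ. That share was not computed, so no excess can be read from these counts. Where a lack of overlap is given for single genes below, it is description only. The excess of lower probe sets at an unadjusted p varies in size with scaling. After subtracting the 75th percentile of every array, 372 were higher and 980 lower. The same fit called 344 probe sets (2.22%) between regenerated and unlesioned arrays, 0 (0%) between nonregenerated and unlesioned arrays, where 790 (5.10%) passed unadjusted, and 380 (2.45%) between the lesioned groups. The first 2 of these comparisons share the unlesioned arrays.

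With 1 value per gene, the mean of its probe sets, 3 of 8793 genes were called, or 0.0341%. The changes of tbr1b and rnd3b were the same per probe set, where neither was called, so averaging did not alter them. Per gene the p-values were adjusted over 8793 tests instead of 15502. tbr1b, a T-box transcription factor of glutamatergic forebrain neurons, fell by 1.34 on the log2 scale with a standard error of 0.17 (limma adjusted p = 0.0408). sox9b, a transcription factor of glia and neural stem cells, fell by 1.77 (SE 0.17, limma adjusted p = 0.0163). rnd3b rose by 1.80 (SE 0.21, limma adjusted p = 0.0408). These calls were not stable: with 1 array left out, tbr1b and rnd3b each lost theirs in 8 of 9 fits (limma adjusted p up to 0.241 and 0.158) and sox9b in 3 of 9 (up to 0.158). With the lesioned arrays pooled all 3 calls were lost (limma adjusted p = 0.134 for tbr1b, 0.831 for sox9b and 0.561 for rnd3b). All 3 were also lost when each lesioned group had to differ from the controls on its own (limma, 0.872 for tbr1b). With the negative control median as a covariate tbr1b lost its call (limma adjusted p = 0.0652) and the others kept theirs. rnd3b lies outside the rule for naming genes and was named after its values were seen. In bulk samples fewer cells of a type and less RNA per cell cannot be told apart, and the same holds for more cells and more RNA, here and in the results that follow.

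Only tbr1b of these 3 was of similar size in both lesioned groups. Its values were 1.19, 0.97 and 1.45 in unlesioned arrays 1 to 3, -0.30, -0.41 and -0.06 in the nonregenerated and 0.00, -0.07 and 0.03 in the regenerated arrays. All 6 lesioned arrays were low, and the groups did not overlap. The change was -1.21 in regenerated and -1.46 in nonregenerated neurons, and their difference of 0.25 had a 95% interval of -0.18 to 0.67.

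The other called genes leaned on the regenerated arrays. sox9b was at -3.20 in regenerated and at -0.33 in nonregenerated neurons, a difference of -2.88 (SE 0.20, limma adjusted p = 0.00028). Its values were 0.34, 0.33 and 0.41 in the unlesioned, -0.24, 0.00 and 0.33 in the nonregenerated and -2.68, -3.04 and -2.81 in the regenerated arrays. Only the regenerated arrays stood clear of the controls for this gene. rnd3b was at 2.50 in regenerated and at 1.098 in nonregenerated neurons, a difference of 1.40 (SE 0.25, limma adjusted p = 0.0183), and all 6 lesioned arrays lay above the controls.

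Changes were called similar when both lesioned groups moved the same way against the controls and the smaller change was at least 0.5 of the larger. Of the 1260 probe sets with an unadjusted p under 0.05, 602 were similar by this rule, or 47.8%, with 256 higher and 346 lower. Another 587 were led by the regenerated arrays, 224 higher and 363 lower, and 71 were led by the nonregenerated arrays, 32 higher and 39 lower. The rule uses the same values as the comparison, so these counts describe it and test nothing. Over all 15502 probe sets, 3663 were similar, or 23.6%. The comparison between the lesioned groups does not enter the contrast that picked the probe sets, although the size rule uses the same values. It called 203 of the 587 regenerated-led, 2 of the 71 nonregenerated-led and 0 of the 602 similar probe sets, beside 2.45% of all probe sets. Without the p filter it called 345 of 7812 regenerated-led and 35 of 4027 nonregenerated-led probe sets. The rule picks similar probe sets for a small difference and the led ones for unequal changes, so these counts test nothing. A requirement that both groups differ from the controls on their own passed 243 probe sets unadjusted, or 1.57%, of which 111 (0.716%) were higher and 132 (0.852%) lower, and 0 after adjustment.

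**Figure D1:**
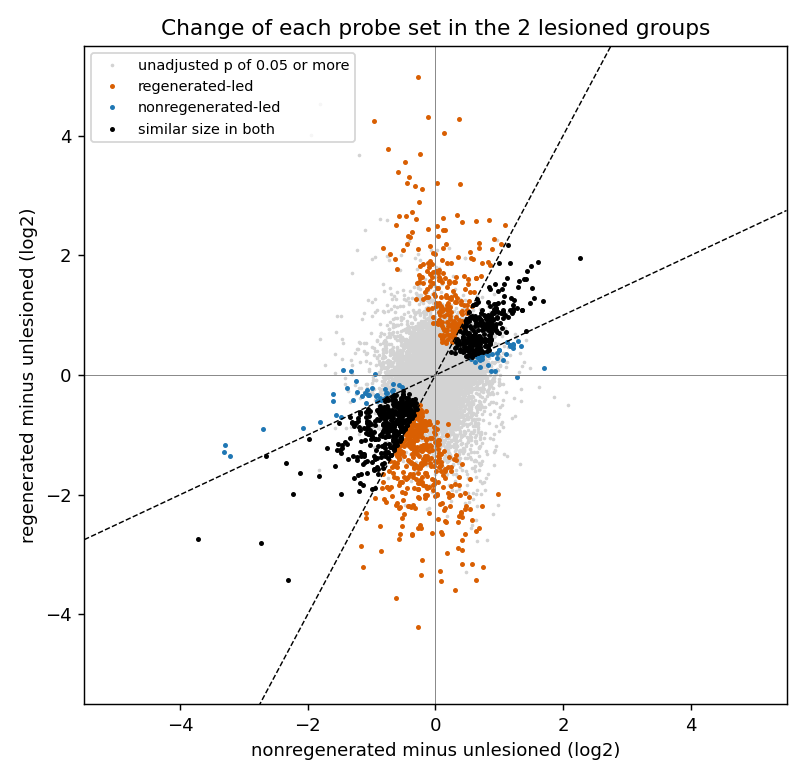
Each point is a probe set, with its log2 change in nonregenerated neurons across and in regenerated neurons up, both against the same 3 unlesioned arrays. Dashed lines mark a smaller change that is 0.5 of the larger; the 602 black points lie between them, and the 587 orange points stretch along the vertical axis.

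The edge of the rule runs between probe sets that hardly differ. Just inside lay bsg with a ratio of 0.501, tubb5 with 0.503 and neurod2 with 0.513. Just outside lay lmo4b with 0.495, cd59a with 0.493 and dclre1b with 0.491. With the smaller change required to be 0.67 of the larger, 409 probe sets were similar, and at 0.33 it was 798.

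Among probe sets of similar size whose arrays did not overlap, the 8 with the smallest p in each direction are described next. None passed the adjusted threshold, and their limma adjusted p ran from 0.111 to 0.193. They were picked for not overlapping, so that property is no finding about them.

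pycard, which encodes the ASC adaptor of the inflammasome, was 1.50 higher in lesioned neurons (95% interval 0.94 to 2.06). Its values were -1.98, -1.57 and -0.81 in the unlesioned, -0.31, 0.00 and 0.14 in the nonregenerated and 0.29, 0.02 and 0.15 in the regenerated arrays. Every lesioned array was high, and the controls were spread over more than 1 unit. cyba, the p22phox subunit of the NADPH oxidase that phagocytes use to make superoxide, was 1.16 higher (interval 0.62 to 1.71). Its values were -1.17, -1.06 and -1.02 in the unlesioned, 0.12, 0.29 and 0.00 in the nonregenerated and 0.33, 0.40 and -0.66 in the regenerated arrays. The third regenerated array lay nearest the controls, and the gene's second probe set was at 0.41.

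bri3, a small membrane protein found in lysosomes, was 0.96 higher (interval 0.60 to 1.33). Its values were -0.96, -0.81 and -0.74 in the unlesioned, -0.04, 0.00 and 0.19 in the nonregenerated and 0.11, 0.49 and 0.00 in the regenerated arrays. The controls were tightly grouped below all lesioned arrays, and the second bri3 probe set was at 1.02. scpep1, a serine carboxypeptidase of lysosomes, was 1.09 higher (interval 0.64 to 1.54). fuca2, an alpha-L-fucosidase, was 1.03 higher, while its second probe set was at 0.28. napsa, an aspartic peptidase of the napsin type, was 0.86 higher, with 0.71 in regenerated and 1.00 in nonregenerated neurons.

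ccng2, cyclin G2, which is known to rise when cells stop dividing, was 1.07 higher (interval 0.64 to 1.51). Its values were -1.05, -0.82 and -0.82 in the unlesioned, 0.07, 0.17 and -0.08 in the nonregenerated and 0.75, 0.12 and 0.00 in the regenerated arrays. The nonregenerated arrays were close together, the first regenerated array was the highest, and its second probe set was at 0.62. qars1, the glutaminyl-tRNA synthetase, was 1.66 higher at 1 of its 3 probe sets, and the other two were at -0.37 and 0.09. The gene as a whole therefore has no single direction on this array.

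Of the 8 lower probe sets, hsbp1a, a binding partner of heat shock factor, was at -1.50 (interval -1.96 to -1.04). Its values were 1.50, 1.101 and 1.34 in the unlesioned, 0.19, 0.00 and -0.06 in the nonregenerated and -0.86, -0.35 and -0.02 in the regenerated arrays. The controls were high and close together, and no lesioned array reached them. cyp19a1b, the brain aromatase that makes oestrogen and in fish is a gene of radial glia, was at -1.75 (interval -2.37 to -1.13). Its values were 1.67, 1.13 and 1.21 in the unlesioned, -0.82, 0.22 and -0.86 in the nonregenerated and -0.52, 0.00 and -0.51 in the regenerated arrays. Its other probe sets were at -2.87 and -1.39, so all 3 ran the same way.

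hbba2, an adult beta globin of red blood cells, was at -3.23 (interval -4.43 to -2.03). Its values were 4.27, 1.69 and 3.38 in the unlesioned, -0.56, -0.44 and -0.81 in the nonregenerated and 1.33, -0.19 and 0.00 in the regenerated arrays. The controls were high but far from each other, and the second lay nearest the lesioned arrays. Fish globin genes are close copies, so a probe set may also read others of the family.

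The rest of the lower set was less settled between probe sets. top2b, the DNA topoisomerase II of cells that no longer divide, was at -1.16, while its other 4 probe sets ranged from -0.65 to 0.08. col5a2a, a fibrillar collagen chain, was at -1.73 and its second probe set at 0.11. zufsp, a ubiquitin peptidase, was at -1.02 and its second probe set at 0.04. ftr86, of the finTRIM family of fish, was at -1.27 with 1 probe set.

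**Figure D2:**
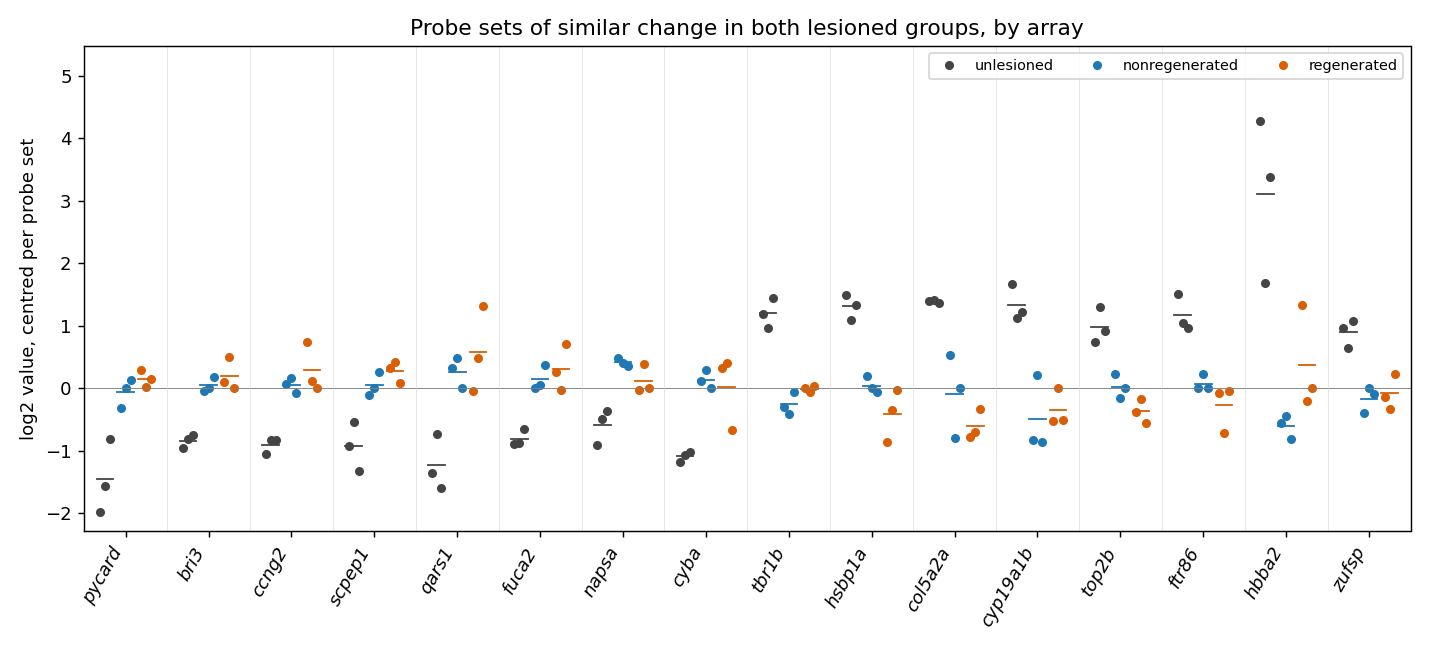
Each point is 1 array's log2 value, centred on the probe set's median, for the 16 probe sets described, by group; short lines are group means of 3 arrays. The controls sit below all lesioned arrays for the 8 genes on the left and above them for the 8 on the right, by the rule that chose them.

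The gene lists below were chosen with earlier results of these data known, so their shares are description only. The injury-response transcription factors and signal regulators held 34 measured genes. Of these, 8 were higher at an unadjusted p under 0.05, or 23.5%, against 3.98% of all 8793 genes, and 2 were lower, or 5.88%, against 4.80%. The median change of the list was 0.25, with 0.18 in regenerated and 0.40 in nonregenerated neurons, while over all genes the median was 0.03. None passed the adjusted threshold. The mean of the list lay between -0.14 and -0.13 in the unlesioned, 0.18 and 0.30 in the nonregenerated and -0.08 and 0.08 in the regenerated arrays. All 6 lesioned arrays were thus above the controls in this mean.

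klf9, a Krüppel-like factor known to hold back axon growth in mammalian neurons, had the largest change of the list at 2.11 (interval 0.82 to 3.41, limma adjusted p = 0.267). Its values were -0.71, -0.79 and -0.80 in the unlesioned, 2.61, 1.91 and 0.00 in the nonregenerated and 2.02, 1.60 and -0.04 in the regenerated arrays. The first and second array of each lesioned group were well above the controls, and the third array of each lesioned group lay closer to them. cebpd, a transcription factor of the acute inflammatory response, was at 0.65, with 1.08 in nonregenerated and 0.21 in regenerated neurons. The difference between the lesioned groups for cebpd was -0.87 (SE 0.20, limma adjusted p = 0.0486). gadd45aa, a growth-arrest and DNA-damage gene, ran the other way at -1.15, with all 6 lesioned arrays below the controls. It was led by the regenerated arrays, with -1.63 there and -0.66 in nonregenerated neurons.

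stat3 and socs3a had values of similar size in both lesioned groups. stat3, the transcription factor activated by cytokines of the interleukin-6 family, was at 0.76 (interval 0.22 to 1.29, limma adjusted p = 0.348). Its values were -0.56, -0.60 and -0.65 in the unlesioned, 0.00, 0.49 and 0.30 in the nonregenerated and 0.08, -0.52 and 0.59 in the regenerated arrays. The controls lay close together below all lesioned arrays, and the second regenerated array almost met them. socs3a, its feedback inhibitor, was at 0.85 and overlapped with the controls, while socs3b was at 0.14, with -0.02 in regenerated and 0.31 in nonregenerated neurons.

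atf3, the stress-induced transcription factor widely used to mark injured neurons, was at 0.79 (interval 0.20 to 1.39, limma adjusted p = 0.392). Its values were -0.70, -0.15 and -1.26 in the unlesioned, 0.42, 0.00 and -0.40 in the nonregenerated and 0.34, 0.14 and 0.05 in the regenerated arrays. The regenerated arrays were all above the controls, and the third nonregenerated array overlapped with the second control. jun, its dimer partner, was at 0.30 with an interval of -0.06 to 0.65. The early-response genes egr2a and egr2b were at 0.81 and 0.61, and ets2 was at 0.42 with 0.70 in nonregenerated neurons.

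Other regulators linked to axon regrowth had smaller or negative changes. sox11a was at -0.48 and sox11b at -0.28, klf7b at -0.31 and klf6a at 0.02, with an interval of -0.57 to 0.60. klf6a, klf7b and socs3b changed sign in at least 1 alternative setting, so no direction can be given for them. egr2a, egr2b, ets2 and socs3a were named after their values were seen.

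Genes of axon growth leaned lower. Of 40 measured, 2 were higher, or 5.00%, near the 3.98% of all genes, and 11 lower, or 27.5%, against 4.80%, at an unadjusted p under 0.05, and 0 passed the adjusted threshold. The median was -0.32, with -0.19 in regenerated and -0.24 in nonregenerated neurons. Of the 11 lower genes 3 were similar in both lesioned groups, namely tmsb, dpysl5a and l1cama, named after their values were seen. With the negative control median as a covariate the list held 6 higher and 7 lower genes.

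marcksb, a membrane-bound regulator of actin in growth cones, was at -1.24 with -1.95 in regenerated and -0.53 in nonregenerated neurons (difference -1.43, limma adjusted p = 0.0308). tubb5, a beta tubulin, was at -1.23, with all 6 lesioned arrays below the controls. As the mean of its probe sets it was led by the regenerated arrays, with -1.67 there and -0.80 in nonregenerated neurons. gap43, a protein of growing axon tips, was at -0.71 (interval -1.27 to -0.15), with -0.99 in regenerated and -0.43 in nonregenerated neurons. Its values were 0.05, 0.67 and 0.69 in the unlesioned, 0.43, -0.31 and 0.00 in the nonregenerated and -0.96, -0.24 and -0.34 in the regenerated arrays. The regenerated arrays were low and the nonregenerated ones overlapped with the controls.

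Over the whole list 8 of 40 genes were of similar size in both lesioned groups, beside 2104 of all 8793 genes. Of the genes described next, tmsb was similar and tuba1b, stmn2a and plaua were not. tmsb, a beta thymosin that binds actin monomers, was at -0.95 with values of 0.84, 0.27 and 0.85 in the unlesioned, -0.32, 0.00 and -0.89 in the nonregenerated and -0.60, -0.18 and 0.20 in the regenerated arrays. All lesioned arrays were below the controls, by a small margin for the third regenerated array. tuba1b, an alpha tubulin, was at -1.39 from -2.44 in regenerated and -0.34 in nonregenerated neurons, and stmn2a, a tubulin-binding protein, at -0.46 with 0.01 and -0.94. plaua, a urokinase-type protease, was at 1.45 from 3.10 in regenerated and -0.21 in nonregenerated neurons, so its mean rests on the regenerated arrays. Alpha and beta tubulin genes are close copies, and the probe sets may read more than 1 of them.

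**Figure D3:**
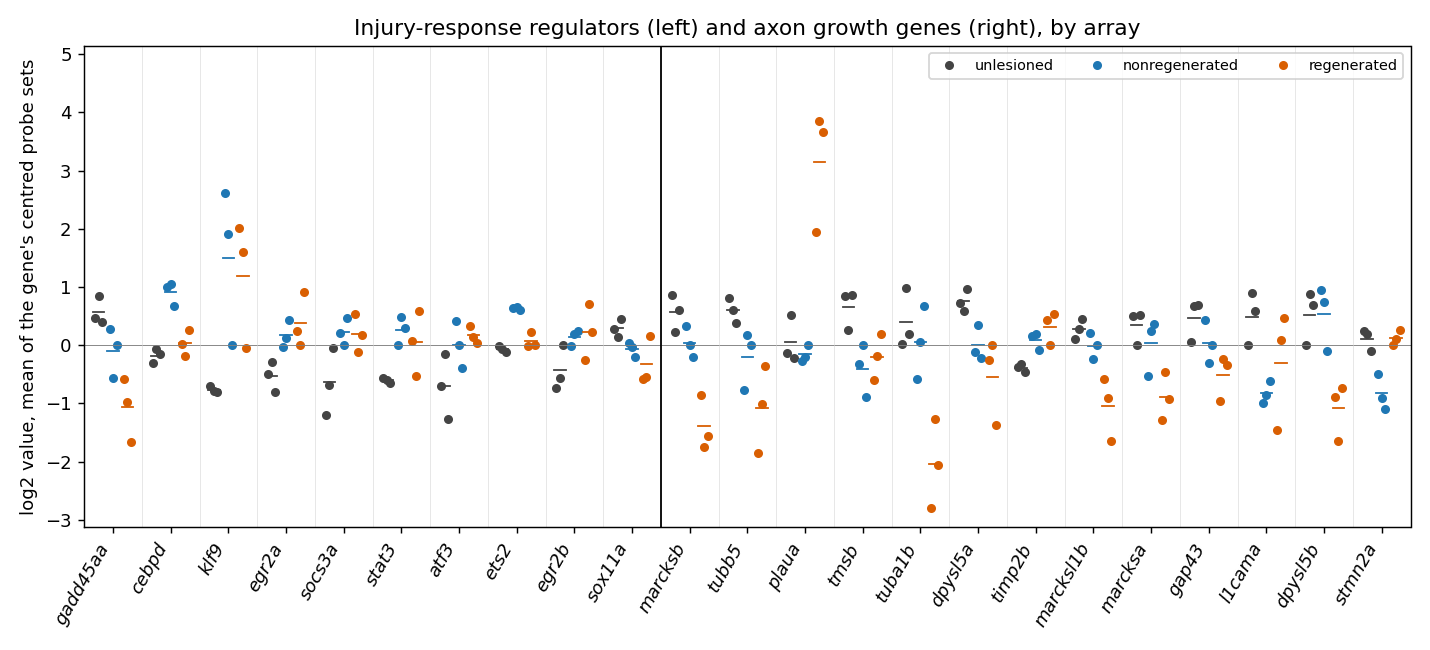
Each point is 1 array's log2 value, the mean of the gene's centred probe sets, for the 10 injury-response and 13 axon growth genes with an unadjusted p under 0.05; short lines are group means of 3 arrays. stat3 and klf9 have all lesioned arrays above the controls, while several axon growth genes are low mainly in the regenerated arrays.

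Of 41 axon guidance genes measured, 1 was higher, or 2.44%, against 3.98% of all genes. Another 10 were lower, or 24.4%, against 4.80%, and the median was -0.19. The median was -0.31 in regenerated and -0.05 in nonregenerated neurons. The mean of the list lay between -0.58 and -0.30 in the regenerated arrays, while the nonregenerated arrays, at -0.02 to 0.11, overlapped with the controls at 0.10 to 0.16. robo3, a receptor that steers axons across the midline, was at -1.24 with -1.35 in regenerated and -1.12 in nonregenerated neurons, and sema3aa, a repulsive semaphorin, was at -0.77 with -0.93 and -0.62. tnr, an extracellular matrix protein made by oligodendrocytes, was at -1.42 from -2.56 and -0.28. The first 2 were similar in the lesioned groups and the third was led by the regenerated arrays. Across the alternative settings the list held 3 to 10 lower genes, and its median ran from -0.39 to -0.18.

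Lysosome and autophagy genes leaned higher. Of 38 measured, 7 were higher, or 18.4%, against 3.98% of all genes, and 0 were lower, against 4.80%, with a median of 0.17. ctsc and ctsa, lysosomal peptidases, were at 0.94 and 0.83, and lgmn, the asparaginyl endopeptidase, was at 1.06. lgmn was 1.61 higher in regenerated and 0.50 in nonregenerated neurons (difference 1.11, limma adjusted p = 0.0456). Without unlesioned array 1, 2 members were higher and 2 lower, and the median was 0.07. Apoptosis and p53 genes were higher at 5 of 27, or 18.5%, against 3.98% of all genes, with 0 lower, against 4.80%. Their median was 0.09, and 2 of the 5 were similar in both lesioned groups. Across the alternative settings this list held 1 to 7 higher and 0 to 2 lower genes. Of the stress and unfolded protein genes 1 of 37 was higher, or 2.70%, below the 3.98% of all genes, and 0 were lower, against 4.80%. The higher gene was asns, the asparagine synthetase of the amino acid response, at 0.52.

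Genes of leukocytes and microglia had positive medians in both lesioned groups. Of 29 measured, 24 had a positive change, or 82.8%, against 55.0% of all genes. At an unadjusted p under 0.05, 7 were higher, or 24.1%, against 3.98%, and 1 lower, or 3.45%, against 4.80%. The median was 0.30, with 0.22 in regenerated and 0.37 in nonregenerated neurons. The mean of the list lay between -0.20 and -0.12 in the unlesioned and between 0.03 and 0.30 in the lesioned arrays.

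The 3 members with the smallest p, apoeb, cxcr4b and cyba, were all of similar size. apoeb, an apolipoprotein of microglia and macrophages, was at 0.77 (interval 0.39 to 1.15, limma adjusted p = 0.198), with values of -0.46, -0.77 and -0.34 in the unlesioned, 0.00, 0.00 and 0.21 in the nonregenerated and 0.67, 0.27 and 0.33 in the regenerated arrays. The lesioned arrays were all above the controls. cxcr4b, a chemokine receptor, was at 1.06 (interval 0.50 to 1.61), with values of -0.93, -1.18 and -0.32 in the unlesioned, -0.16, 0.48 and 0.00 in the nonregenerated and 0.69, 0.43 and 0.03 in the regenerated arrays. The first nonregenerated array lay just above the highest control. c1qc, a complement subunit made by microglia, was at 1.22, also without overlap, and was named after its values were seen.

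Another member, named after its values were seen, ran the opposite way. lyz, the lysozyme of neutrophils and macrophages, was at -2.77 (interval -4.51 to -1.03, limma adjusted p = 0.275). Its values were 4.27, -0.01 and 3.74 in the unlesioned, 0.00, -0.12 and -0.08 in the nonregenerated and 0.07, 0.05 and -0.55 in the regenerated arrays. Unlesioned arrays 1 and 3 were high and array 2 lay within the lesioned range. Without unlesioned array 2 the change of lyz passed limma's adjusted threshold, as did those of hbba2 and 3 other probe sets.

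Red blood cell genes were also high in the controls. Of 17 measured, 0 were higher, against 3.98% of all genes, and 5 were lower, or 29.4%, against 4.80%, with a median of -0.39. Besides hbba2, hbaa1, an alpha globin, was at -2.23 with values of 2.06, 0.52 and 1.08 in the unlesioned, -3.40, -1.64 and -1.16 in the nonregenerated and 0.26, 0.00 and -0.13 in the regenerated arrays. slc4a1a, the anion exchanger of the red cell membrane, was at -1.48, with -2.07 in nonregenerated and -0.88 in regenerated neurons. The mean of the list was 1.02, 0.16 and 0.38 in unlesioned arrays 1 to 3 and between -0.31 and 0.29 in the lesioned arrays. Without unlesioned array 1 the list held 3 lower genes and a median of -0.16. The part of blood cells in the other results was not tested.

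Genes of cerebellar granule neurons had negative medians in both lesioned groups. Of 16 measured, 0 were higher, against 3.98% of all genes, and 6 lower, or 37.5%, against 4.80%. The median was -0.76, with -0.84 in regenerated and -0.59 in nonregenerated neurons, and 10 members were of similar size in both. The mean of the list was 0.98, 0.33 and 0.08 in unlesioned arrays 1 to 3, between -0.46 and -0.35 in the nonregenerated and between -0.24 and 0.01 in the regenerated arrays. The first control stood highest, and without it 4 were lower and the median was -0.36.

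neurod1, a proneural transcription factor kept on in granule neurons, was at -2.28 (interval -3.47 to -1.10, limma adjusted p = 0.219). Its values were 2.93, 0.82 and 0.75 in the unlesioned, -1.43, -2.06 and -1.65 in the nonregenerated and 1.15, 0.00 and -0.69 in the regenerated arrays. The nonregenerated arrays were far below the controls, and the first regenerated array overlapped with them. zic1, a zinc finger factor of granule neurons, was at -1.32 with -1.17 in regenerated and -1.47 in nonregenerated neurons, and neurod2 was at -2.00 with -1.36 and -2.65. For both, all 6 lesioned arrays were below the controls. For neurod2 the margin was small, as the unlesioned arrays were at 2.76, 0.37 and 0.05 and the regenerated at 0.00, -0.91 and 0.02. The marker list shares zic1, zic2a and cbln1 with the Purkinje list and pax6a with the radial glia list. The transcription factors zic1 and zic2a are used by other neurons as well.

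**Figure D4:**
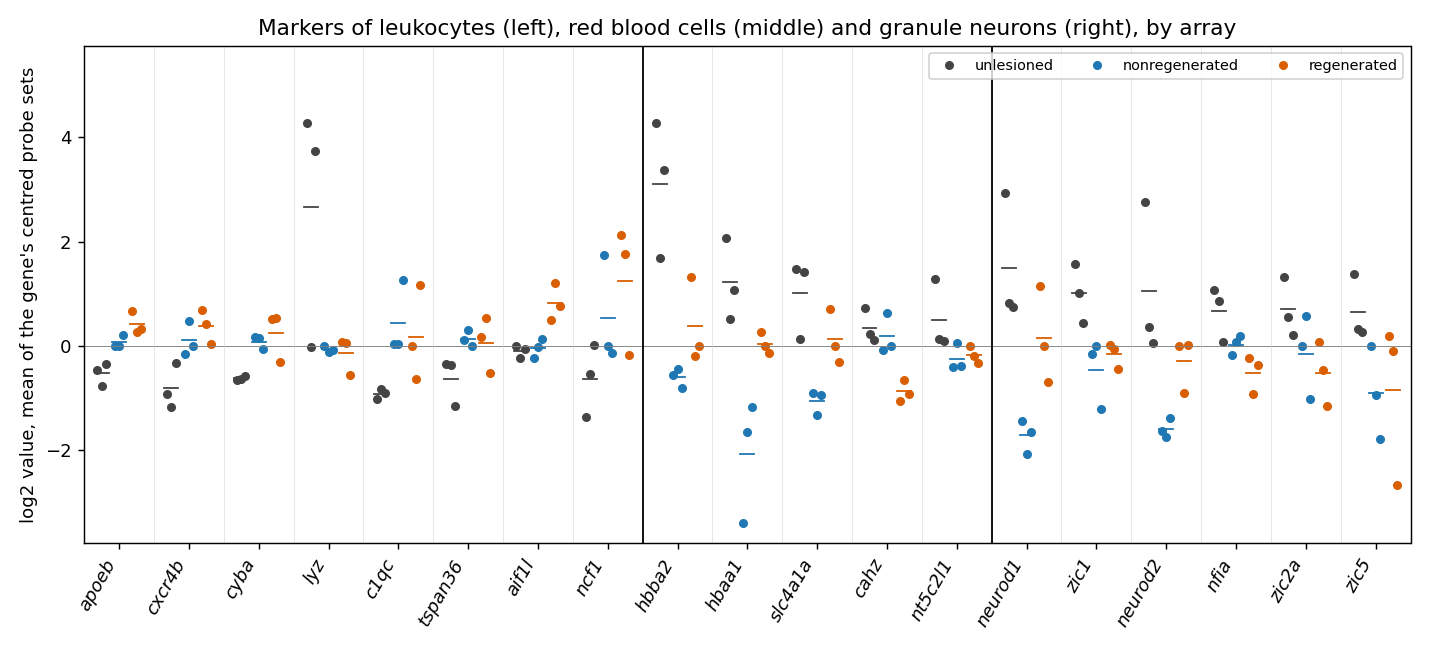
Each point is 1 array's log2 value, the mean of the gene's centred probe sets, for the genes with an unadjusted p under 0.05 in the lists of leukocytes (8), red blood cells (5) and cerebellar granule neurons (6); short lines are group means of 3 arrays. lyz and hbba2 are high in unlesioned arrays 1 and 3, and neurod1 and neurod2 in unlesioned array 1.

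Radial glia and oligodendrocyte genes were lower in the lesioned mean, with the low values in the regenerated arrays. Of 29 radial glia genes, 1 was higher, or 3.45%, against 3.98% of all genes, and 8 lower, or 27.6%, against 4.80%, with medians of -1.01 in regenerated and 0.26 in nonregenerated neurons. Of 10 oligodendrocyte genes, 6 were lower, against 4.80% of all genes, and all 6 were led by the regenerated arrays. The medians of this list were -1.50 in regenerated and 0.07 in nonregenerated neurons. cyp19a1b and vim, the intermediate filament vimentin, were the 2 lower radial glia genes of similar size in both groups. vim was at -1.56 with -1.93 and -1.19, and its values were 1.24, 1.02 and 0.49 in the unlesioned, -0.84, 0.00 and 0.00 in the nonregenerated and -0.13, -1.17 and -1.75 in the regenerated arrays. All 6 lesioned arrays were below the controls for vim, which was named after its values were seen.

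General neuronal and Purkinje markers had medians of opposite sign in the lesioned groups, a difference that was not tested for the lists. Of 26 general neuronal markers, 2 were higher, or 7.69%, against 3.98% of all genes, and 6 lower, or 23.1%, against 4.80%, with medians of 0.21 in regenerated and -0.59 in nonregenerated neurons. celf4, a neuronal RNA-binding protein, was at -1.30 with -1.48 and -1.13, and elavl3, the HuC protein of neurons, was at -0.80 with -0.81 and -0.78. Both had all 6 lesioned arrays below the controls. Purkinje genes were higher at 7 of 18, or 38.9%, and lower at 4, or 22.2%, against the same shares of all genes. Their medians were 1.16 in regenerated and -0.53 in nonregenerated neurons, and all 7 higher genes were led by the regenerated arrays. Those 7 include dgkzb, casq2 and camk2d1, and casq2 is also on the skeletal muscle list. The lower ones include zic1 and zic2a, also on the granule list. This list was chosen with earlier results of these data known, so its shares test nothing.

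Genes of the general cell machinery had small changes. Of 71 cytosolic ribosome genes, 68 had a positive change, or 95.8%, against 55.0% of all genes. In both lesioned groups 47 were of similar size, beside 2104 of all 8793 genes. At an unadjusted p under 0.05 only 3 were higher, or 4.23%, near the 3.98% of all genes. Their median was 0.25, with 0.24 in regenerated and 0.27 in nonregenerated neurons, and it was 0.20 after subtracting the 75th percentile of every array. The list mean was 0.07, -0.42 and -0.14 in unlesioned arrays 1 to 3. In the nonregenerated arrays it was -0.20, 0.10 and 0.40 and in the regenerated -0.01, 0.07 and 0.21, so the groups overlapped. Unlesioned array 2 was the lowest, and without that array the median was 0.12. Oxidative phosphorylation genes were higher at 7 of 72, or 9.72%, against 3.98% of all genes, with medians of 0.48 in regenerated and -0.10 in nonregenerated neurons.

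**Figure D5:**
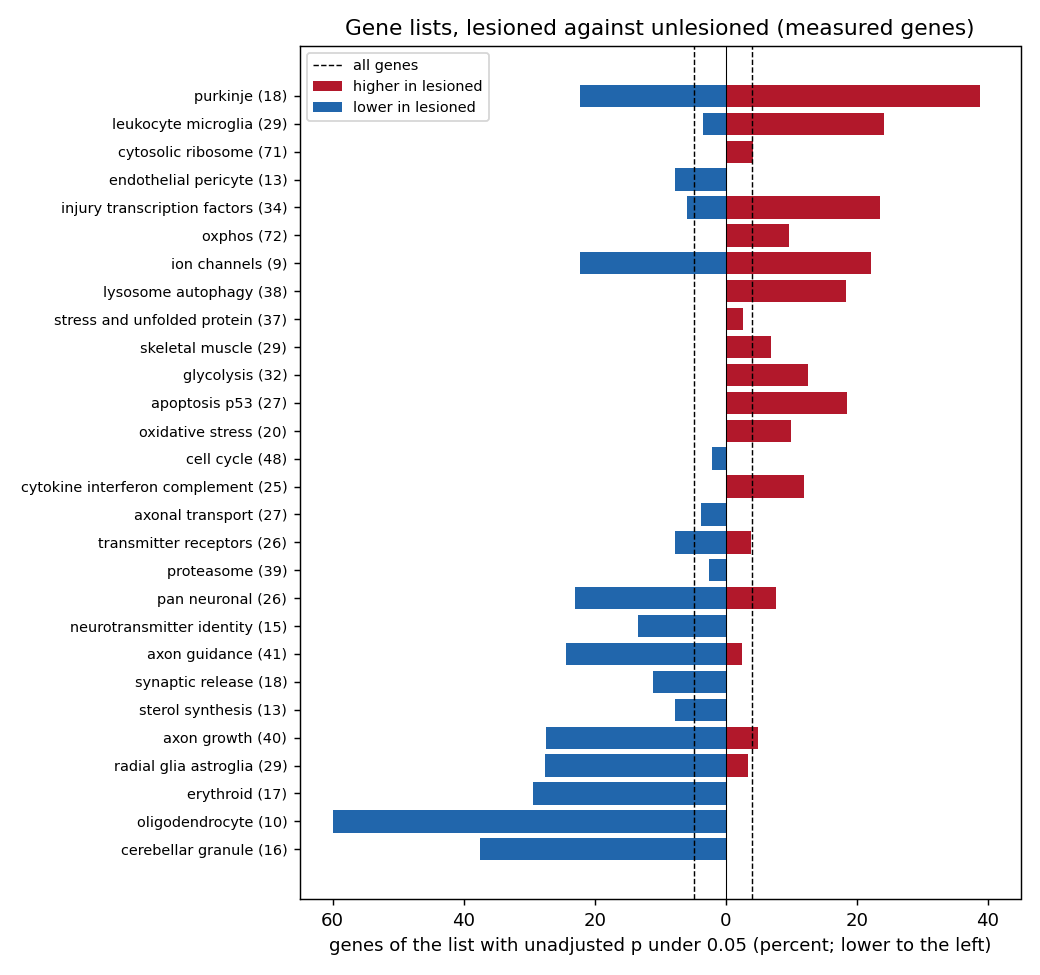
Bars give, for each of 28 gene lists, the percent of measured genes (number in brackets) higher (right) or lower (left) in lesioned neurons at an unadjusted p under 0.05; dashed lines mark the 3.98% and 4.80% of all genes. Lists are ordered by their median change, from cerebellar granule at the bottom to Purkinje at the top.

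Leaving out regenerated arrays 1 and 3 gave 14 called probe sets, 1 of them of similar size, in a fit that takes the lone regenerated array to vary like the other groups. The injury-response list then held 11 higher genes with a median of 0.30, and the leukocyte list 8 with a median of 0.35. The granule list held 7 lower genes with a median of -0.65. The radial glia list held 13 lower genes, against 8 with all arrays, and its median went from -0.36 to -0.71. The oligodendrocyte list held 6 lower genes with a median of -0.77. The Purkinje list held 5 higher and 2 lower genes with a median of 0.48, and the oxidative phosphorylation list 10 higher and 1 lower with a median of 0.31. Over all genes, 614 were then higher and 555 lower, with a median of 0.00. sox9b was at -1.86 and rnd3b at 1.93, both called by limma (adjusted p = 0.0265 and 0.0422), and tbr1b was at -1.36 (0.0552).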

How the data were processed

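Expression was measured on 9 arrays, 1 per sample, in 3 groups of 3. The deposited values are log2 values that the authors computed with RMA, per the submitters' processing notes with no version given. All 15617 probe sets had a median of 0 across the arrays (tolerance 1e-04), and no source used here records the step that centred them. After 115 control probe sets were left out, 15502 were tested; platform annotation gave 1 symbol to 10795, several to 135 and none to 4572. Names were checked against RefSeq genes of assembly GRCz12tu, used for names only.

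Group means were fitted with limma 3.58.1 in R 4.3.3 (6 residual and 3.16 prior degrees of freedom) to all arrays. The contrast was the mean of both lesioned groups minus the unlesioned group, two-sided, with Benjamini-Hochberg adjustment over all probe sets, called under 0.05. Genes of the 28 lists were given a value by averaging probe sets, with p-values adjusted over 8793 genes. Errors are standard errors or 95% intervals from this fit. P-values measure the spread between these samples.

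Named were the 8 probe sets per direction of similar size without overlap, by smallest p since none was called. These had exactly 1 symbol and no clone-style name, with 1 probe set per gene. Up to 3 members of each list described and 12 fixed genes were also named. Others are marked as chosen after their values were seen. Called genes led by 1 lesioned group would also have been named, but none was called per probe set. The sorting of probe sets at an unadjusted p was added because none was called. The groups compared, lists and rules were chosen with earlier results of these data known. The model was tested on simulated data. Alternatives covered scaling, weights, each array left out, covariates, thresholds and filters. Figures used matplotlib 3.10.9.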

Additional observations from a re-analysis of the deposited data

Results flagged for a closer look

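For 9 of the genes described, the change after lesion differed between regenerated and nonregenerated neurons by limma's test of the difference itself. Over all 15502 probe sets the same comparison called 380, or 2.45%. Many of the genes described were chosen from these same values, so the count of 9 is no result about them as a set. The regenerated minus nonregenerated difference was -2.09 for tuba1b (adjusted p = 0.0400), 0.95 for stmn2a (0.0462), -0.87 for cebpd (0.0486), 1.40 for rnd3b (0.0183), -2.88 for sox9b (0.00028), -1.43 for marcksb (0.0308), 3.31 for plaua (0.00558), -2.28 for tnr (0.00329) and 1.11 for lgmn (0.0456), with 3 arrays in each group.

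The negative control probe sets, which no comparison uses, had a mean of array medians of 0.27 in the regenerated group, above -0.04 in the unlesioned group. Their part in the results was not tested beyond the fit that takes their median as a covariate. Groups of 3 arrays were too small to look for single outlying samples.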

How the results depend on the processing

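The count of called probe sets, 0 in the fit as reported, was 7 after quantile normalization, all 7 of similar size (tbr1b, hsbp1a, bri3, pycard, hbba2, ftr86 and rnd3b). It was 14 without regenerated arrays 1 and 3, with 1 of similar size, 1 with the negative control median as a covariate, and 3 with 1 value per gene, with 1 of similar size. Leaving out each array in turn gave 0 to 5 calls and 0 to 4 of similar size; the 5 came without unlesioned array 2 and 1 came without regenerated array 1. Testing only the 7751 probe sets of larger SD gave 101 calls, 38 of similar size; that filter raised limma's prior degrees of freedom from 3.16 to 106, so its variances were pooled far more strongly. The count stayed at 0 under median and 75th percentile centring, array weights, robust moderation, pooled lesioned arrays, the joint test, both other thresholds, removal of cross-hybridizing probe sets and both other size rules. Whether replicate numbers pair the samples is not given, and correlations between 9 arrays cannot settle it. Those of same-numbered arrays ran from -0.19 to 0.26 and those of other pairs from -0.26 to 0.24. Of the 9 arrays, 5 correlated best with their own number. With the replicate number as a block, 0 were called and 1239 passed unadjusted, against 1260; per gene the block ended the calls of tbr1b, sox9b and rnd3b (limma adjusted p = 0.0854 for each).

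At an unadjusted p, centring on the 75th percentile moved the split of higher and lower probe sets from 512 and 748 to 372 and 980, and that of similar ones from 256 and 346 to 182 and 424. Over the named genes and all alternatives, 666 values kept direction and side of the threshold, 19 came to pass it, 7, all of sox9b, no longer did, and 11 turned sign. This tally takes tbr1b and rnd3b per probe set, where neither was called. It therefore leaves out the calls they lost per gene, among them those in 8 of 9 fits each with 1 array left out. The sign turned for klf6a (0.02 as reported) to -0.034 with the 75th percentile and -0.092 with the covariate, with -0.17 to 0.28 when arrays were left out; for socs3b (0.14) to -0.22 with the covariate, with -0.12 to 0.57; and for klf7b (-0.31) to 0.060 with the covariate. These genes' intervals include 0. The cause of these shifts was not tested. The medians of the injury-response, leukocyte, granule, erythroid, axon growth and lysosome lists kept their sign in every alternative run, which were added for the lists after seeing the data; that of cytokine genes became -0.01 with the 75th percentile. Signal over background is not known for centred values.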

Other observations

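Sodium channel genes, which set how readily a neuron fires, held members of opposite sign. Of 9 measured ion channel genes, 2 were higher and 2 lower at an unadjusted p under 0.05, or 22.2% in each direction. The shares of all genes were 3.98% and 4.80%, and 0 ion channel genes passed limma's adjusted threshold. scn4bb, a beta subunit, was at 0.97 in the regenerated and 0.97 in the nonregenerated neurons, with an SE of 0.27 for the lesioned mean. scn8aa, a pore-forming subunit, was at -0.77 and -1.22, and all 6 lesioned arrays lay below the 3 controls. Also counted were scn3b, at 1.30 and 0.21, and hcn2b, at -0.70 and -0.28, both led by the regenerated arrays. hcn2b was named after its values were seen.

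Of 15 transmitter identity genes, 0 were higher, against 3.98% of all genes, and 2 lower, or 13.3%, against 4.80%. One of the lower genes, th, tyrosine hydroxylase of dopamine and noradrenaline neurons, was at -0.93 with overlapping arrays. The list members ddc, dbh and slc6a3, also of such neurons, were at -0.36, -0.05 and 0.04, and were named after their values were seen. The delta opioid receptor oprd1a was at -0.79 with all 6 lesioned arrays below the controls. syt4, a synaptotagmin of secretory vesicles, was at -0.70, also without overlap. nfe2l2a, the Nrf2 regulator of oxidative stress genes, was at 0.47 and pdk2b, a kinase that slows pyruvate use in mitochondria, at 1.13, both with overlapping arrays. No cell cycle gene was higher among 48, against 3.98% of all genes, and 1, nasp, was lower, or 2.08%, against 4.80%. The list median was 0.05 and changed sign in 4 alternatives.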
